A study of Drosophila melanogaster with 28 samples.

Results

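Early-cleared maternal genes with CG names are genes known in these tables only by a *Drosophila* annotation number (CG followed by digits) whose RNA was abundant in newly laid embryos and scarce a few hours later. They were chosen from input levels in FPKM, a read count scaled to transcript length and library size. A gene was a member if it had at least 5 FPKM at 0–1 hr after egg laying and at most 25% of that level at 2–3 hr, in the inputs of both eGFP-ME31B and *w1118* embryos. The rule found 67 genes among 16768 fly genes listed in all 3 tables, of which 7102 carry CG names. At 5 FPKM or more in both 0–1 hr inputs there were 2024 CG-named genes, and the members are 3.31% of them. With the same fall there were 73 genes with other symbols, so that 140 of 5237 genes of any name (2.67%) were cleared this far. The 4 inputs that the rule used fix the fall from 0–1 to 2–3 hr, which is therefore only described. Of all genes, 5.62% in eGFP-ME31B and 4.83% in *w1118* inputs were at 25% or less at 2–3 hr in FPKM as deposited. At or above their 0–1 hr level were 44.3% and 70.4%. Taken as a share of the summed fly FPKM of each input, 6.93% and 25.1% were at 25% or less, and 34.4% and 27.0% at or above the 0–1 hr level.

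The libraries come from RIP-seq, in which RNA recovered with a protein (the immunoprecipitate, IP) is sequenced beside RNA of the same lysate (the input). An eGFP-ME31B trap line, in which eGFP is fused to ME31B, gave the ME31B IPs (with anti-GFP antibodies), and *w1118* embryos, the strain used as wild type, gave the PABP IPs (with synthetic antibody fragments), each at 5 ages from 0–1 to 4–5 hr. A further 4 libraries came from embryos carrying *png50*, a weak hypomorphic allele of *png*: inputs of *png50* embryos at 0–1 and 2–3 hr, and a 0–1 hr input and ME31B IP of eGFP-me31B;*png50* embryos. The last 4 are an input and an IP for each protein from S2 cells, a macrophage-like line, which had been transfected with eGFP-ME31B for the ME31B pair only. The strain, genotype and table differ between the ME31B and PABP series, so the effects of protein, strain and table cannot be told apart. There was 1 library per condition, so no value has a replicate error and no difference between conditions was tested.

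In the first hours the *Drosophila* embryo lives on mRNA laid down by the mother, and much of this RNA is destroyed before and during activation of the zygotic genome. ME31B is a DEAD-box RNA helicase of the DDX6 family that acts with Cup and TRAL in repressing maternal mRNA, and PABP is the cytoplasmic protein that coats poly(A) tails. PNG is the kinase, active from egg activation onwards, that is needed for the translation of *smg* mRNA, whose product SMG recruits the deadenylases that clear many maternal transcripts.

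The libraries as a whole bear on these genes in a few ways. Fly FPKM summed to between 899038 and 1089178 in the eGFP-ME31B inputs but to only 302478 and 125101 in the *w1118* inputs at 0–1 and 1–2 hr, against 1021829 to 1160521 in the 3 later *w1118* inputs. Levels in *w1118* embryos are therefore also given as a share of the fly total. Summed early zygotic markers (15 genes) rose from 171 to 351 FPKM between 0–1 and 2–3 hr in eGFP-ME31B inputs. In *w1118* inputs their sum rose from 29.6 to 594 FPKM. Most of the eGFP-ME31B sum at 0–1 hr came from *Sxl* (129 FPKM) and *slam* (29.96 FPKM). The next highest marker there, *zen*, was at 3.2 FPKM. By 2–3 hr *Sxl* had fallen to 95.9 FPKM in eGFP-ME31B inputs, while *slam* had risen to 93.8 FPKM. In *w1118* inputs *Sxl* rose from 12.7 to 56.4 FPKM. Follicle cell markers (12 genes) summed to at most 2.79 FPKM in any embryo input. In S2 inputs the hemocyte collagens *Cg25C* and *vkg* were at 280 to 356 FPKM, whereas *NimC1* was listed at 0 in both and *Hml* was at most 0.264 FPKM. The *png* transcript stood at 128 FPKM at 0–1 hr in *png50* inputs, so its level cannot be used to check the allele.

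All 67 members are annotated as protein-coding. Their median transcript was 1585 nt long and their median 3′ UTR 196 nt, shorter than in the early-cleared genes with other symbols (2214 and 297 nt). They were close to the 1546 CG-named genes that kept at least 50% of their level in both strains, as deposited (1663.5 and 214 nt). These 1546 are called not cleared below, which depends on the scale. By share of fly FPKM 151 of them (9.77%) were at 25% or less at 2–3 hr in *w1118* inputs. Scaled to the *C. elegans* RNA that the authors added, 442 (28.6%) were. In eGFP-ME31B inputs 0 were on either scale. On the X chromosome lay 17 members (25.4%), against 18.1% of the CG-named genes that were not cleared. The share was 22.5% for early-cleared genes with other symbols and 15.1% for all fly genes. No member lay on chromosome 4 (0.613% of all fly genes). The others were spread over 2L (7, 10.4%), 2R (10, 14.9%), 3L (15, 22.4%) and 3R (18, 26.9%). These arms held 19.8%, 20.1%, 19.9% and 24% of all fly genes, and 25.4%, 16.9%, 16.9% and 18.3% of early-cleared genes with other symbols. Of the members that are neighbours, CG2129 and CG10959 lie 928 nt apart on the X, and CG4789 and CG13005 lie 1650 nt apart on the same chromosome. Counting could mix reads of overlapping genes: 9 members overlap another gene on the same strand, among them CG45084 (with *BicC*), CG15047 (*Bx*), CG3603 (*kirre*) and CG4991 (CG16700), and 28 overlap one on the opposite strand. Their values are uncertain to that extent.

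In RefSeq 12 of the members carry other symbols. They include CG12018 (*PolD2*, the small subunit of DNA polymerase δ), CG5147 (*Polr3D*, an RNA polymerase III subunit), CG5414 (*IleRS-m*, the mitochondrial isoleucyl-tRNA synthetase), CG9065 (*Cox17*, in yeast and human a copper chaperone for cytochrome c oxidase), CG1890 (*Tbca*, tubulin-binding cofactor A) and CG8331 (*ReepB*, of a family that shapes the endoplasmic reticulum). Enzymes of lipid, amino acid and cofactor metabolism are CG9149 (*Acat2*), CG3394 (*Fatp3*), CG5044 (*Hibch*) and CG8080 (*Nadk2*). The remaining pair are CG10960 (*nebu*) and CG11448 (*Rilpl*). The others still carry only their CG name.

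The 6 members with the highest 0–1 hr level, taken as the geometric mean of both strains, were CG6770, CG14545, CG4991, CG6927, CG10960 and CG8331. CG6770 (chr2L:12045343-12046118, dm6, minus strand, 69 codons) was at 1387 FPKM in the eGFP-ME31B input at 0–1 hr and fell through 903 and 112 to 21.6 FPKM at 3–4 hr, ending at 25.7. In *w1118* inputs it was at 86.2 FPKM and then at 26.0, 14.2, 14.5 and 24.0 FPKM. The starting levels in the strains thus differed 16.1-fold, against a median ratio of 2.73 over all members and 3.06 over all 5237 genes. In *png50* embryos CG6770 was at 1314 FPKM at 0–1 hr, a level like that in eGFP-ME31B embryos.

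CG14545 (chr3R:25850410-25851291, minus strand) fell from 545 to 199, 52.6 and 9.23 FPKM, with 10.3 FPKM at 4–5 hr, in eGFP-ME31B inputs. In *w1118* inputs its levels were 176, 22.3, 9.69, 6.20 and 10.2 FPKM. CG4991 (chrX:17091854-17104562, plus strand) fell at each age in both strains, from 524 to 11.5 FPKM and from 175 to 2.87 FPKM. CG6927 behaved like CG4991, ending at 6.29 and 2.27 FPKM from 328 and 117 FPKM. The strongest falls by 2–3 hr among members still at 0.5 FPKM or more were those of CG31075 (2.61% in eGFP-ME31B and 2.21% in *w1118*), CG4842 (6.23% and 2.71%), CG4476 (4.87% and 5.72%) and CG45084 (3.07% and 9.43%). The rule had a hard edge: CG3603 (24.9% in eGFP-ME31B) and CG15916 (24.7% in *w1118*) were just inside it, and CG7386 (25.1%) and CG6613 (25.2%), both by their eGFP-ME31B value, were just outside.

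**Figure D1:**
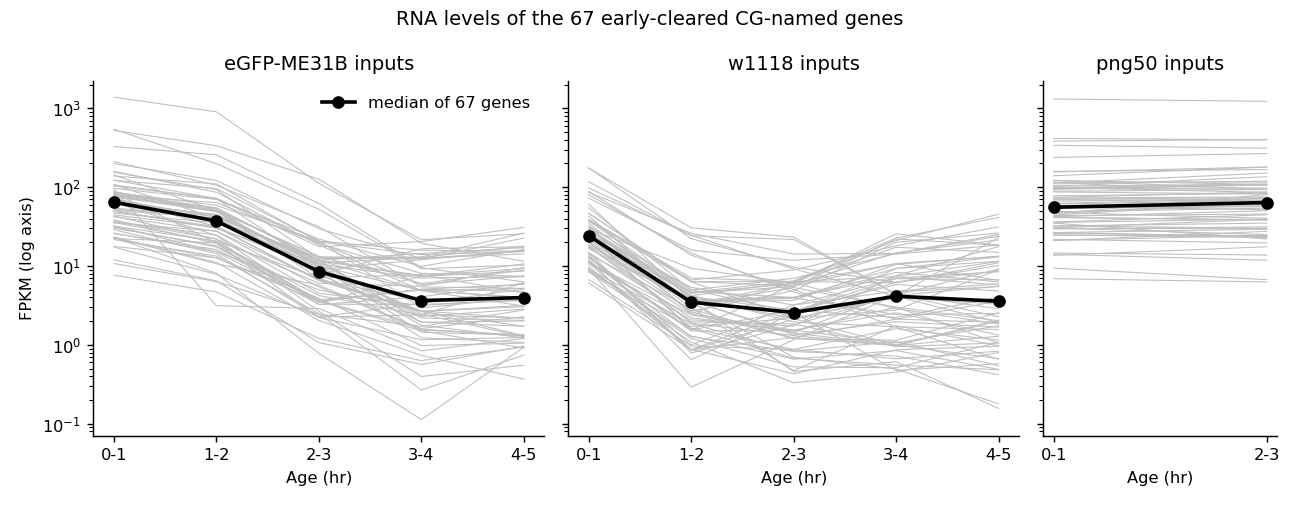
Levels of the 67 genes in the inputs (FPKM, log axis) by age after egg laying (hr), for eGFP-ME31B, w1118 and png50 embryos; each grey line is 1 gene and the black line is the median. The median fell from 64.5 to 8.53 FPKM between 0–1 and 2–3 hr in eGFP-ME31B and from 24.3 to 2.58 FPKM in w1118 inputs, which the rule fixes, and was 55.7 and 63.9 FPKM at the same ages in png50 inputs.

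The inputs at 1–2, 3–4 and 4–5 hr were not used by the rule. In eGFP-ME31B embryos the members stood at a median of 61.3% of the 0–1 hr level at 1–2 hr, at 6.45% at 3–4 hr and at 7.75% at 4–5 hr. All fly genes at 5 FPKM or more had medians of 95.7%, 78.0% and 71.0%. At 1–2 hr only 2 of 67 members, CG45084 and CG31075, were at 25% or less (1.20% of all genes were), at 3–4 hr 66 of 67 were (13.1% of all genes), and at 4–5 hr 58 of 67 (15.7%). The member above 25% at 3–4 hr was CG5414. At or above the 0–1 hr level were 0 of 67 members at each of these ages, beside 41.0%, 37.4% and 33.2% of all genes.

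In *w1118* inputs the members were at 14.4% at 1–2 hr as deposited, and 64 of 67 were at 25% or less, beside 28.4% of all genes. Since this input had a low fly total, the same median was 34.8% as a share of fly FPKM, against 75.3% for all genes. At 3–4 hr the members' median was 16.8% as deposited and 4.76% as a share of fly FPKM, and at 4–5 hr 14.2% and 3.70%. As deposited, 39 and 36 of 67 members were at 25% or less at these ages, beside 6.28% and 6.99% of all genes. By share of fly FPKM these counts were 65 and 60 (24.6% and 30.1% of all genes). At or above the 0–1 hr level, as deposited, were 0 members at 1–2 hr (0.827% of all genes), 2 at 3–4 hr (71.8%) and 6 at 4–5 hr (68.7%), the last being CG1598, CG34150, CG4789, CG6567, CG8080 and CG9065. By share of fly FPKM 0 members were at or above it at 3–4 and 4–5 hr. Together the members made up 0.772% of fly FPKM in the eGFP-ME31B input at 0–1 hr, 0.422% at 1–2 hr and 0.0366% at 3–4 hr. The matching shares in *w1118* inputs were 0.739%, 0.283% and 0.0384%. In both strains the members took a smaller share at 1–2 hr than at 0–1 hr, but the 0–1 hr inputs, against which all these levels are set, were used by the rule.

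After 2–3 hr the members went apart. In both strains 5 members were at least 2-fold higher at 4–5 than at 2–3 hr (2.81% of all genes at 5 FPKM or more at 0–1 hr), namely CG15916, CG1598, CG18048, CG34150 and CG9065, and 9 were at least 2-fold lower (9.35% of all genes). The 2–3 hr inputs in these ratios were used by the rule. The ratios are as deposited. Between 2–3 and 4–5 hr the added *C. elegans* RNA went from 3009 to 4225 FPKM in eGFP-ME31B and from 151137 to 229224 FPKM in *w1118* inputs. Scaled to it, the rises would be smaller and the falls larger, and the genes were not counted on that scale. CG34150 went from 2.26 to 6.15 FPKM in eGFP-ME31B and from 2.12 to 23.1 FPKM in *w1118* inputs, above its 0–1 hr level of 13.8 FPKM in the latter, as deposited. That input had a low fly total. By share of fly FPKM no member was above 43.7% of its 0–1 hr level at 4–5 hr in *w1118* inputs. CG9065 (*Cox17*) went from 3.47 to 10.6 FPKM and from 2.53 to 13.1 FPKM. The 9 that were lower were CG10344, CG14931, CG3394, CG4476, CG45084, CG4991, CG5194, CG6927 and CG9926. They did not all fall at each step: CG14931 went from 4.89 to 5.20 FPKM between 3–4 and 4–5 hr in eGFP-ME31B inputs. Bulk RNA cannot tell a smaller amount per cell from fewer cells with the transcript.

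In *png50* embryos the members as a group were not lower at 2–3 hr in FPKM as deposited, although 27 of 67 were below their 0–1 hr level. By share of fly FPKM their median was lower, at 88.4%, and scaled to worm RNA it was 65.2%. As deposited, their median level at 2–3 hr was 105% of that at 0–1 hr, with 0 of 67 members at 25% or less (0.552% of all genes were) and 0 at 50% or less (1.99%). At or above the 0–1 hr level were 40 of 67 members, beside 44.2% of all genes and 56.6% of the CG-named genes that were not cleared, as deposited. By share of fly FPKM there were 12 (15.2% of all genes), and scaled to worm RNA 1 (1.40%). The lowest was CG15047 at 63.0% (35.1 and 22.1 FPKM), followed by CG6428 at 71.4% and CG4476 at 76.6%. The highest was CG12811 at 175% (46.1 and 80.6 FPKM), followed by CG34150 at 147% and CG3603 at 137%. No member's value in *png50* overlapped the range in the other strains, 2.61 to 24.9% and 1.76 to 24.7%. The rule fixes the upper end of those ranges but not the *png50* values. Since only 0.552% of all genes were at 25% or less in *png50* inputs, this lack of overlap is not particular to the members.

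The scale of this comparison depends on what the inputs are set against. Scaled to the *C. elegans* RNA that the authors added, the *png50* median was 65.2%, beside 60.3% for all genes in those inputs, and the medians in the strains used by the rule were 8.98% and 2.17%. As a share of fly FPKM they were 88.4%, 13.4% and 3.74%. Scaled to worm RNA, the lowest member in *png50* (39.2%) was still above the highest in eGFP-ME31B (15.0%) and *w1118* inputs (4.24%). CG6770, for example, was at 1314 and 1229 FPKM in *png50* inputs, CG14545 at 416 and 398 FPKM, and CG31075, the member with the strongest fall elsewhere, at 77.7 and 83.5 FPKM. The genetic background, table and library differ between *png50* and the other embryos along with the allele.

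**Figure D2:**
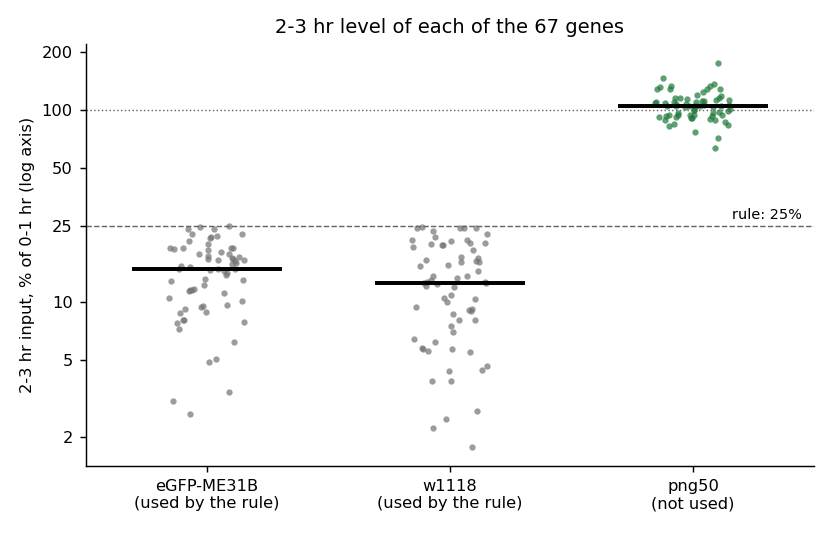
Input level at 2–3 hr as a percent of 0–1 hr (log axis) for each of the 67 genes in eGFP-ME31B, w1118 and png50 embryos; points are genes, bars are medians and the dashed line is the 25% that the rule required in the first pair and the dotted line is 100%. The medians are 14.9%, 12.6% and 105%, and the lowest png50 value is 63.0%.

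Binding is given as the log2 ratio of IP to input FPKM minus that of the median gene. Only genes that exceeded 0.5 FPKM throughout a series were kept. A value of 0 is thus the median gene, and 1 is 2-fold above it, the level used here to call a gene. For ME31B 63 of 67 members passed this filter; CG15047, CG4842, CG6126 and CG8159 failed it on the input at 3–4 or 4–5 hr. For PABP 49 passed, and 17 of the 18 that failed had a 2–3 hr IP at 0.5 FPKM or less, so the PABP values describe the members that stayed detectable.

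ME31B binding of the members was above the median gene at every age. At 0–1 hr its median was 0.48, with 54 of 63 members above 0 and 14 called at 1 or more (8.39% of all genes were). At 1–2 hr the median was 1.17, all 63 members were above 0, and 39 were called (15.7% of all genes). It was 1.83 at 2–3 hr (57 called, 23.9% of all genes), 1.56 at 3–4 hr (48 called, 21.0%) and 1.74 at 4–5 hr (49 called, 21.5%). At −1 or less was 1 member at 0–1 hr, CG45084 (18.9% of all genes), and 0 at the later ages (24.9%, 28.0%, 20.6% and 20.1%). The values at 0–1 and 2–3 hr divide by inputs that the rule used, so a low 2–3 hr input both made a gene a member and raised its ratio there. The other 3 ages share no library with the rule.

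In comparison, CG-named genes that were not cleared had ME31B medians between −0.07 and 0.17 at the 5 ages. Early-cleared genes with other symbols had 0.24 at 0–1 hr, 0.91 at 1–2 hr and 1.20 at 3–4 hr, so that a higher ME31B ratio at 1–2 and 3–4 hr was shared by early-cleared genes of either kind of name. Per gene, 61 of 63 members were higher at 1–2 than at 0–1 hr, with a median difference of 0.55 against 0.06 over all genes, of which 53.6% were higher. This rise starts from a ratio to an input that the rule used. The exceptions were CG9065 (−0.21) and CG34293 (−0.02), which began among the highest.

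The 3 highest members at 0–1 hr were CG34293 (2.08), CG9065 (1.95) and CG6770 (1.82), with transcripts of 740, 521 and 776 nt. In eGFP-ME31B inputs CG34293 was at 32.1, 20.8, 7.11, 7.82 and 4.56 FPKM from the youngest to the oldest embryos. In the ME31B IPs it was at 150, 90.1, 42.7, 28.9 and 22.1 FPKM, above the input at each age. CG6770 had 5391, 4398, 697, 152 and 218 FPKM in the ME31B IPs, and its binding went from 1.82 to 2.80 at 4–5 hr. CG14545 went further, from 1.06 to 2.98, with IP levels of 1255, 848, 390, 89.5 and 98.6 FPKM.

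The lowest members at 0–1 hr were CG45084 (−2.18), CG5776 (−0.44) and CG17544 (−0.28). CG45084, which overlaps *BicC* on the same strand, had 94.3 FPKM in the 0–1 hr input and 23.0 in the IP, but 3.15 and 11.2 FPKM at 1–2 hr. Its binding thus rose by 3.95, and its reads cannot be assigned with certainty. The next largest rise to 1–2 hr was that of CG9926 (1.57; chr3R:13949454-13951138, minus strand), which had 87.7 and 89.1 FPKM in input and IP at 0–1 hr, 53.0 and 150 FPKM at 1–2 hr, and 1.94 and 36.1 FPKM at 3–4 hr. Its binding of 3.86 and 3.94 at 3–4 and 4–5 hr was the highest of any member. At those ages 2 members at 3–4 hr (CG5414 and CG5776) and 3 members at 4–5 hr (CG1598, CG45084 and CG5776) were below the median gene.

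**Figure D3:**
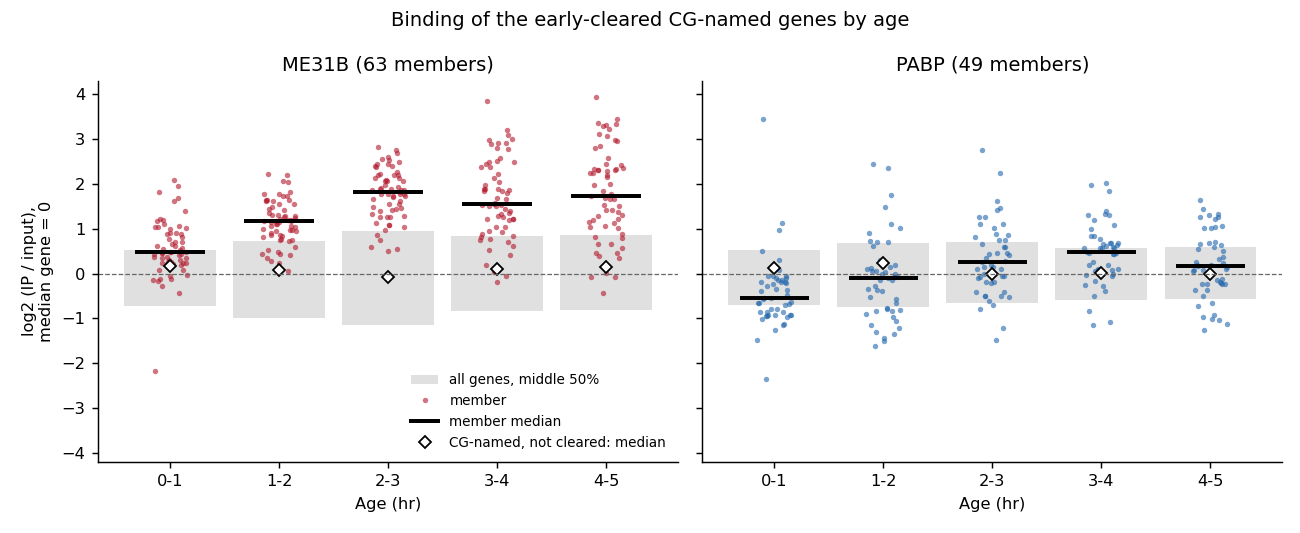
Binding of the members to ME31B (left, 63 members) and PABP (right, 49 members) by age (hr), as log2 of IP over input with the median gene at 0; points are genes, black bars their medians, diamonds the medians of CG-named genes that were not cleared, and grey boxes the middle 50% of all genes. For ME31B the member medians are 0.48, 1.17, 1.83, 1.56 and 1.74, and for PABP −0.55, −0.10, 0.25, 0.48 and 0.17.

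PABP binding of the members was lower than ME31B binding. At 0–1 hr its median was −0.55, with 6 of 49 members above the median gene, 2 called at 1 or more (10.4% of all genes) and 6 at −1 or less (17.8%). CG-named genes that were not cleared were at 0.13 and early-cleared genes with other symbols at −0.64. These ratios divide by the 0–1 hr input that the rule used, and a high input there both favours selection and lowers the ratio, in either early-cleared group. The median was −0.10 at 1–2 hr, 0.25 at 2–3 hr, 0.48 at 3–4 hr and 0.17 at 4–5 hr. From 1–2 to 4–5 hr 6, 10, 9 and 11 members were called at 1 or more, beside 14.2%, 17.0%, 11.7% and 11.7% of all genes. At −1 or less were 8, 2, 2 and 4, beside 18.6%, 15.9%, 11.7% and 12.1%. At 3–4 hr 45 of 49 members were above their own 0–1 hr value (median difference 1.00; 55.5% of all genes were above), a rise measured from that same 0–1 hr value and so partly built in by the rule. The sign of these PABP medians depends on processing: with no filter and a pseudocount of 0.5 FPKM the median was 0.49 at 1–2 hr and −0.33 at 2–3 hr, and at 0–1 hr it was 0.28 when centred on *Act5C* in place of the median gene.

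CG6770 had the highest PABP binding at 0–1 hr (3.46), from 86.2 FPKM in the input and 2393 in the IP. Since its *w1118* input was low beside the other strains, the value rests on that input. With 939 FPKM in the IP and 26.0 in the input at 1–2 hr it fell to 2.44, the largest fall among members. CG1890 (*Tbca*) followed with 1.13 (46.7 and 258 FPKM) and CG34293 with 0.98 (10.9 and 54.3 FPKM). The lowest were CG31075 (−2.35; 61.0 and 30.3 FPKM), CG8272 (−1.47; 13.0 and 11.9 FPKM) and CG4476 (−1.26; 88.5 and 93.5 FPKM). The largest rises to 1–2 hr were those of CG13014 (1.83) and CG7322 (1.77), from 0.792 and 0.997 FPKM in the 1–2 hr input, and after CG6770 the next fall was that of CG3652 (−0.64).

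Of the 49 members that could be measured for both proteins, ME31B binding exceeded PABP binding in 47 at 0–1 hr (53.0% of all genes), 46 at 1–2 hr (46.6%), 46 at 2–3 hr (48.7%) and 40 at both 3–4 hr (50.6%) and 4–5 hr (51.2%). The median difference lay between 1.02 and 1.47 log2 units at the 5 ages, against −0.08 to 0.06 over all genes. At 1–2, 3–4 and 4–5 hr, ages the rule did not use, it was 1.34, 1.03 and 1.27. Members that had high ME31B binding also tended to have high PABP binding at 0–1 hr (Spearman *rs* = 0.53, n = 49 genes) but not at 3–4 hr (*rs* = −0.18), while over all genes *rs* was 0.59 and 0.33. Genes are not independent replicates, and these correlations share the libraries and the transcript length of each gene.

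IP levels were also followed without dividing by the inputs, which gives levels and not binding. The inputs of the 2 series fell unequally: by share of fly FPKM the members were at 55.9% in eGFP-ME31B and 34.8% in *w1118* inputs at 1–2 hr. In ME31B IPs the members were at a median of 82.9% of their 0–1 hr level at 1–2 hr, 33.1% at 2–3 hr and 16.2% at 3–4 hr, with 1, 17 and 52 of 67 at 25% or less (2.25%, 5.73% and 5.39% of all genes). All genes had medians of 90.1%, 89.7% and 84.0% in ME31B IPs and 86.7%, 23.9% and 48.3% in PABP IPs. In PABP IPs the medians were 43.6%, 2.46% and 6.63%, with 3, 67 and 56 of 67 at 25% or less (0.588%, 52.1% and 27.7% of all genes). In the 2–3 hr PABP IP the median of all genes was also low, at 23.9%, but well above that of the members. As a share of fly FPKM the members made up 1.59%, 1.36%, 0.543%, 0.175% and 0.2% of the ME31B IPs and 0.697%, 0.204%, 0.0161%, 0.0285% and 0.0396% of the PABP IPs from 0–1 to 4–5 hr. Their share was larger in the ME31B IP than in its input at each age, and smaller in the PABP IP than in its input.

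**Figure D4:**
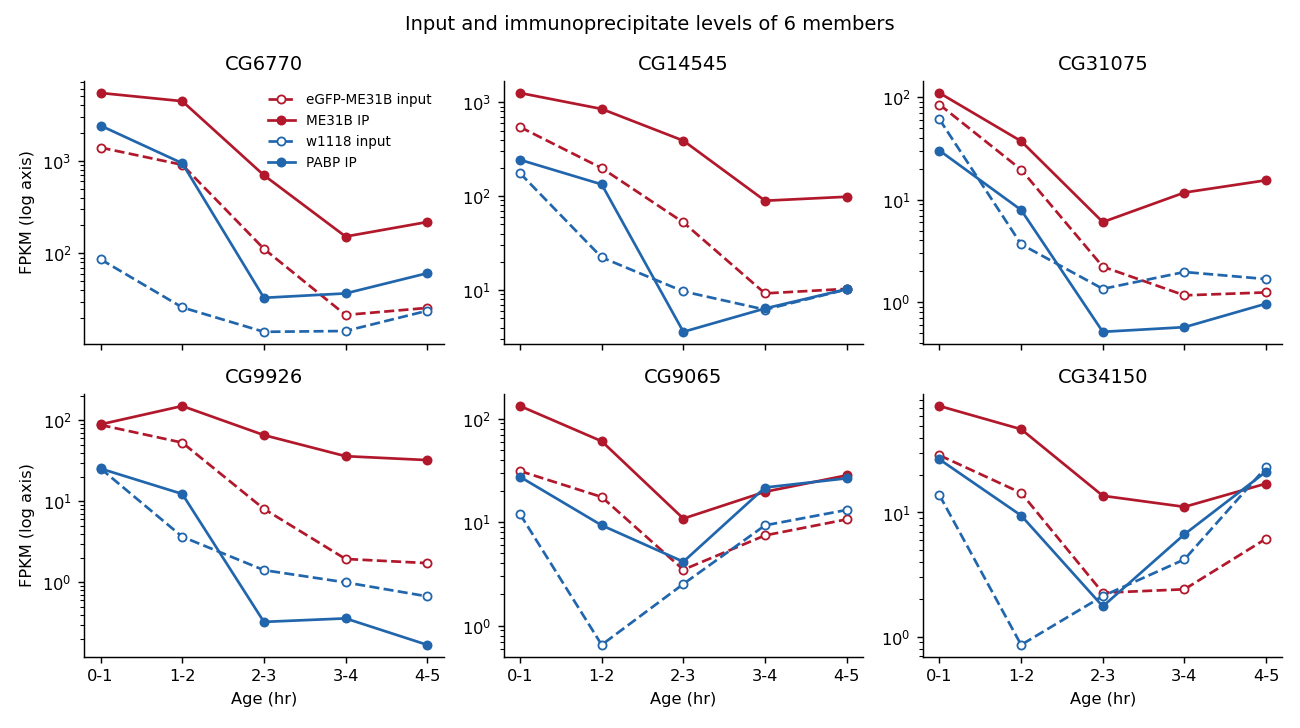
Levels (FPKM, log axis; each panel has its own scale) of 6 members by age (hr) in the eGFP-ME31B input and ME31B IP (red) and the w1118 input and PABP IP (blue); open symbols are inputs and filled symbols IPs, 1 library each. ME31B IP levels lie above the input in all 6 genes at each age, and CG9065 and CG34150 are higher at 4–5 than at 2–3 hr in both inputs.

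In eGFP-me31B;*png50* embryos at 0–1 hr all 67 members passed the filter on the input and IP, and their median ME31B binding was 0.27, with 10 called at 1 or more (5.68% of all genes). The difference from eGFP-ME31B embryos had a median of −0.25 over 63 members, with 19 higher in *png50* (45.3% of all genes were, with a median of −0.06). Centred on *Act5C* the direction turned, with member medians of 1.29 in eGFP-ME31B and 2.51 in eGFP-me31B;*png50* embryos. The order of the members was similar in both (*rs* = 0.68, n = 63, and 0.66 over all genes). CG34293 was highest again at 1.83 (26.8 FPKM in the input and 120 in the IP). CG6770 was at 1.08 (1244 and 3298 FPKM) and CG14545 at 1.33 (398 and 1250 FPKM). CG15047 stood apart, at −4.34, with 43.1 FPKM in the input and 2.66 in the IP, whereas in eGFP-ME31B embryos it had 23.0 and 49.6 FPKM. CG45084 differed in the other direction by 1.63, at 326 and 280 FPKM. Both overlap another gene on the same strand.

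A smaller share of the members than of all maternal genes was present in S2 cells. At 0.5 FPKM or more in both S2 inputs were 54 of 67 members, beside 96.9% of all genes that had 5 FPKM or more at 0–1 hr and 96.7% of CG-named ones. Early-cleared genes with other symbols were closer to the members: 63 and 64 of 73 reached 0.5 FPKM in the ME31B and PABP series inputs, against 55 of 67 members in each. At 10 FPKM or more in both were 31 (75.2% of all genes). Below 0.5 FPKM in both were 11, of which 6 (CG15047, CG4476, CG45084, CG5194, CG6927 and CG9926) were listed at 0 in both (0.783% of all genes). CG4991 and CG6927, with 524 and 328 FPKM in the youngest eGFP-ME31B embryos, were thus nearly or wholly undetected in this line. The highest were CG1890 (*Tbca*) with 180 and 139 FPKM in the ME31B and PABP series inputs, CG8331 (*ReepB*) with 99.4 and 89.7 FPKM, and CG17896 with 106 and 64.3 FPKM. The members' share of fly FPKM was 0.223% and 0.173% in these inputs.

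The members 2-fold or more lower at 4–5 than at 2–3 hr, as deposited, were largely those below 0.5 FPKM in S2 cells. Of the 9 that were at least 2-fold lower at 4–5 than at 2–3 hr in both strains, 8 were below 0.5 FPKM in both S2 inputs, against 0 of the 5 that were at least 2-fold higher and 3 of the other 53. These 8 are 8 of the 11 members below 0.5 FPKM in S2 cells. Over all 5237 genes the same shares were 71 of 489 (14.5%), 4 of 147 (2.72%) and 53 of 4601 (1.15%), so the pattern was not limited to members.

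In S2 cells the order of the proteins was the opposite of that in embryos. Over the 53 members that passed the filter, median ME31B binding was −0.25 with 0 called at 1 or more (8.11% of all genes) and 4 at −1 or less (7.80%). Median PABP binding was 0.39 with 10 called at 1 or more (15.8%) and 2 at −1 or less (9.69%). ME31B binding exceeded PABP binding in 17 of 53 members, beside 49.0% of all genes. Of 51 members measured in both, 32 were above the median gene for ME31B in 0–1 hr embryos and below it in S2 cells, as were 34.5% of all genes. Centred on *Act5C* the S2 ME31B median was 0.26, so its sign depends on the reference.

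Single genes differed in this. CG6770 had 78.3 FPKM in the S2 ME31B series input and 61.6 in the IP (−0.25), but 49.5 and 141 FPKM for PABP (1.98). CG9065 (*Cox17*) had 21.4 and 10.8 FPKM for ME31B (−0.89) and 30.2 and 76.5 FPKM for PABP (1.81). CG8331 (*ReepB*) was lowest for ME31B at −1.33, from 99.4 and 37.0 FPKM, and at 0.87 for PABP. CG4789 was highest for PABP at 2.42, from 45.0 and 175 FPKM, and CG6928 lowest at −2.19, from 4.98 and 0.791 FPKM. CG5414 (*IleRS-m*) and CG5776, among the lowest for ME31B in embryos, were the highest in S2 cells at 0.91 and 0.80, above their PABP binding of 0.17 and −0.73.

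Transcript length moved with these values. Members with shorter transcripts had higher ME31B binding at 0–1 hr (*rs* = −0.80, n = 63), as in all protein-coding genes (−0.61, n = 6465). In S2 cells the relation for ME31B was of the other sign (0.47 over 53 members, 0.69 over 6917 genes), and for PABP it was −0.73 (−0.59 over all). The 22 shortest members (495 to 1176 nt) had a median ME31B binding of 1.03 at 0–1 hr, 1.64 at 1–2 hr and −0.61 in S2 cells. The 22 longest (1893 to 4022 nt) had 0.18, 0.74 and −0.10. Across all genes ME31B binding at 0–1 hr and in S2 cells had *rs* = −0.48, and across members −0.41 (n = 51). The part of length in the difference between embryos and S2 cells was not tested.

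**Figure D5:**
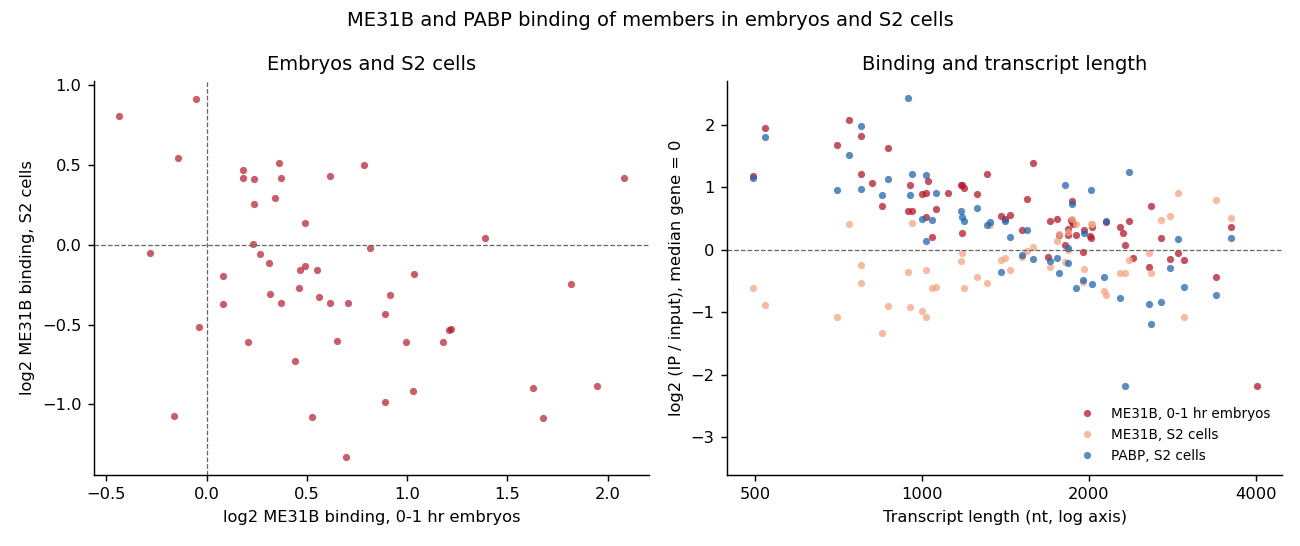
Left, ME31B binding of 51 members in 0–1 hr embryos against S2 cells, each as log2 of IP over input with the median gene at 0; right, binding against transcript length (nt, log axis) for ME31B in 0–1 hr embryos and for both proteins in S2 cells. On the left 32 genes lie at the lower right, and on the right short transcripts are high for ME31B in embryos and for PABP in S2 cells and low for ME31B in S2 cells.

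Genes of the clearance machinery and genes listed as early-cleared targets were looked up by the same measure, in FPKM as deposited. Of 15 regulators of maternal mRNA repression and clearance, 0 of 15 at 5 FPKM or more were at 25% or less at 2–3 hr in eGFP-ME31B inputs, 1 of 14 in *w1118* inputs (*png* itself, 23.6%) and 0 of 15 in *png50* inputs. Of 9 genes of deadenylation and decapping none did so in any of the 3. With 5.62%, 4.83% and 0.552% of all genes at this level, lists this short hold few or no such genes, and nothing particular to them can be read from these counts. Of 8 genes listed as early-cleared targets none did either. Of these *nos*, which SMG regulates, was at 36.8% and 25.5%, and *Hsp83* at 39.4% and 47.6%, against 101% and 65.9% in *png50*. The listed *stg* (149% and 109%), *twe* (111% and 224%) and *bcd* (102% and 175%) were above their 0–1 hr level in both strains. The *w1118* input at 0–1 hr had a low fly total, so by share of fly FPKM each *w1118* percentage would be lower. On that scale 25.1% of all genes were at 25% or less, and the lists were not counted. The transcript of *smg* was at 263% and 410% at 2–3 hr in the strains used by the rule and at 70.9% in *png50*, as deposited. All genes had medians of 93.9%, 190% and 96.9% in the eGFP-ME31B, *w1118* and *png50* inputs. By share of fly FPKM the *w1118* median was 56.2%, so the 410% of *smg* would also be lower on that scale.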

How the data were processed

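The 3 deposited tables hold FPKM per gene and library (28 libraries), as the authors obtained them. Per the submitters' processing notes these were made with bcl2fastq 2.17, FastQC 0.11.5, STAR 2.5.2a and Cufflinks 2.2.1 on dm6, with R 3.1.2 for later steps; the deposited FPKM are not scaled to the added worm RNA. Read totals were not given in the sources used here: low values matched whole reads in only 15.4 to 35.6% of the genes checked per library, so exact counts were not recovered and no counting interval is given. A rough estimate from those steps was 9.8 to 16.5 M reads per library (median 12.9), at which 21 of 67 members had under 10 reads in the *w1118* 2–3 hr PABP IP, 7 in the 2–3 hr input and 5 in the 1–2 hr input. Of 2 biological replicates that the authors made, 1 is used here for each condition, without p-values. Every column of the tables was assigned to a sample. Binding was log2 of IP over its own input, for genes above 0.5 FPKM in all libraries of a series (6699 genes for ME31B, 6086 for PABP, 7309 in S2 cells) or, for eGFP-me31B;*png50*, in both libraries (6779 genes), centred on the median gene. No pseudocount was added. All genes of each table were used, and only the members are printed. Values from different tables, which were quantified separately, are set side by side. Worm scaling divided by summed worm FPKM without worm rRNA; it was not applied to the eGFP-me31B;*png50* and S2 ME31B libraries, which held at most 9 worm FPKM.

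Gene names, dm6 coordinates and lengths came from Ensembl BDGP6.54 release 115 and RefSeq symbols; 67 of 67 members matched. Sequence motifs were not analysed here. The members, lists and tests were chosen with earlier results of these data known. Genes named are, by rule, the 6 highest at 0–1 hr; the 4 strongest falls; per protein the 3 highest and 3 lowest at 0–1 hr and the 2 largest rises and falls to 1–2 hr, at 10 FPKM or more in the input; the 3 highest and lowest 2–3 hr levels in *png50*; the 3 highest in S2 cells; the 2 largest late rises; and 2 genes on each side of the 25% limit. Other names were chosen after their values were seen. The functions were tested on simulated data. Alternatives changed the rule, filter, pseudocount, centring, divisor or scale. Python 3.11.15, numpy 2.4.6, pandas 2.3.3 and matplotlib 3.10.9 were used.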

Additional observations from a re-analysis of the deposited data

Results flagged for a closer look

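In *png50* inputs 40 of the 67 members were at or above their 0–1 hr level at 2–3 hr, as deposited. The same held for 44.2% of all genes and 56.6% of the CG-named genes that were not cleared. All 67 members were at 25% or less in the inputs of both other strains, as the rule required. The count in *png50* was 12 by share of fly FPKM (15.2% of all genes) and 1 scaled to worm RNA (1.40%). With 1 library per age the difference was not tested.

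ME31B binding was above and PABP binding below the median gene in 29 of 49 members at 1–2 hr, in 10 at 3–4 hr and in 16 at 4–5 hr. Over all genes the same held for 13.8%, 18.4% and 21.6%. The difference between the proteins was not tested.

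ME31B binding was above the median gene in 0–1 hr embryos and below it in S2 cells in 32 of 51 members, beside 34.5% of all genes. This difference was not tested.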

How the results depend on the processing

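Of 124 alternatives, 89 left the value within 1.5-fold and on the same side of 0, 26 moved it further and 9 turned its sign; the cause was not tested. The rule gave 17 members at 12.5% or less, 244 at 50% or less, 160 by share of fly FPKM, 295 scaled to worm RNA, 153 from eGFP-ME31B inputs alone and 118 from *w1118* inputs alone. Centred on *Act5C*, median ME31B binding from 0–1 to 4–5 hr was 1.29, 2.48, 3.63, 2.61 and 2.82, in eGFP-me31B;*png50* embryos 2.51 and in S2 cells 0.26; median PABP binding was 0.28, 0.85, 1.40, 1.20 and 0.95. With the other strain's input, ME31B binding was 3.05 at 2–3 hr and PABP binding −0.41 at 2–3 hr and 0.83 at 4–5 hr. Members at 12.5% or less had ME31B binding of 2.35 at 4–5 hr. With no filter and a pseudocount of 0.5 FPKM, PABP binding was 0.49 at 1–2 hr, −0.33 at 2–3 hr, −0.0039 at 3–4 hr and −0.18 at 4–5 hr, and with a filter on the 2 libraries compared it was −0.025 at 4–5 hr. Worm scaling gave 65.2% in *png50* embryos, 4.15% and 3.32% at 3–4 and 4–5 hr in eGFP-ME31B inputs, and 3.44% and 1.61% in *w1118* inputs. By share of fly FPKM the *w1118* medians were 34.8%, 4.76% and 3.70% at 1–2, 3–4 and 4–5 hr. No paired analysis was possible because each condition had 1 library and no replicate numbers. For the same reason no library could be left out. By a rough estimate of depth, 21 of 67 members had under 10 reads in the *w1118* 2–3 hr PABP IP and 5 in the 1–2 hr input, which limits their values there.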
